A study of Mus musculus with 12 samples.

Results

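Voltage-gated and related ion channel genes were followed in whole mouse hearts after acute myocardial infarction (AMI). The genes were taken by symbol, with no measured value used: every gene named Kcn with a subfamily letter and number, Scn with a number, Cacna, Cacnb or Cacng, or Hcn with a number. The rule took 142 of 53801 genes, of which 81 had enough counts to be tested and 61 did not. Noncoding or antisense transcripts made up 5 of the 142 (Kcnab3os, Kcnd3os, Kcnmb4os1, Kcnmb4os2 and Kcnq1ot1), and the others code for pore-forming or accessory subunits.

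Hearts of adult male C57BL/6N mice were sequenced in 3 groups of 4 hearts: sham-operated, day 1 of AMI and day 7 of AMI. AMI was produced by permanent ligation of the left coronary artery, so that an AMI heart holds infarcted and surviving muscle together. No other genotype or drug is given for these hearts, and the sources do not say on which day the sham hearts were taken. Each library is a separate heart, and replicate numbers only name the hearts.

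The cardiac action potential is shaped by ion channels that open in turn. Sodium channels carry the upstroke, L-type calcium channels carry the plateau current that triggers contraction, and potassium channels repolarize the membrane. In mouse ventricle, the fast transient outward current, built from Kv4 pore subunits and their accessory protein KChIP2, dominates early repolarization, inward rectifiers hold the resting potential, and HCN channels carry the pacemaker current. Channels of leukocytes, fibroblasts and vascular cells are also present in whole-heart RNA.

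Expression is given as CPM, the deposited counts relative to library size after scaling by edgeR's TMM factors, and as TPM, which is also per transcript length and was used to compare levels between genes. Changes are log2 fold changes (FC) with SE from edgeR's quasi-likelihood fit over 15306 genes, and "rose" or "fell" means an adjusted p below 0.05. Libraries held 23204551 to 32166517 counts, with TMM factors of 0.781 to 0.917 (sham) and 1.01 to 1.17 (AMI). A count of 3, taken as the floor, was 0.0895 to 0.156 CPM in a library and covers counting error only. Markers of cardiac muscle were abundant in every heart. The 12 cardiomyocyte markers summed to 81552–94255 CPM in sham hearts, 48154–62014 CPM on day 1 and 38822–48519 CPM on day 7, and 10 of the 12 fell by day 1 and 12 of 12 by day 7. In whole-heart RNA, fewer cells of a type and less RNA per cell cannot be told apart.

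The scale therefore bears on every direction given here. Scaling the libraries to the cardiomyocyte markers raised the median log2 FC of all tested genes by 0.54 on day 1, 0.94 on day 7 and 0.40 between the days. On log2(TPM + 1), tested with limma, the shifts were 0.30, 0.50 and 0.20. Counts under both scalings are given beside those of TMM.

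**Figure D1:**
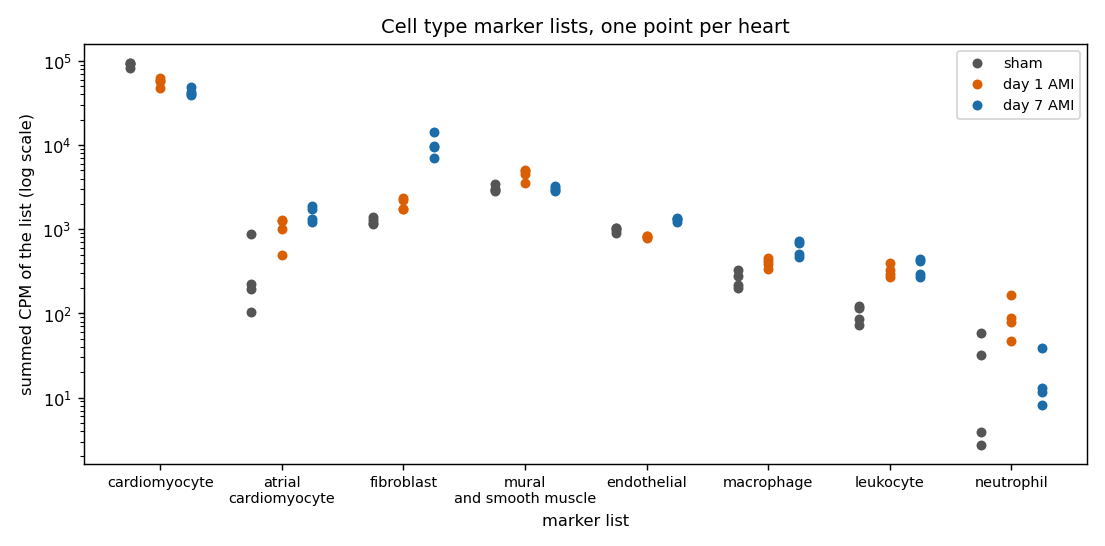
Summed CPM of 8 cell type marker lists (y axis, log scale), with 1 point for each of the 12 hearts, colored by group. Cardiomyocyte markers were lower in all 8 AMI hearts than in all 4 sham hearts, fibroblast markers reached 7019.6–14490.0 CPM on day 7, and atrial markers spread from 103–888 CPM among sham hearts.

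Among the 81 tested channel genes, more fell than rose against sham. On day 1, 13 rose, against 22% of all tested genes, and 23 fell, against 19.9%. On day 7, 23 rose, against 30.9%, and 34 fell, against 28.4%. From day 1 to day 7, 21 rose, against 24.2%, and 17 fell, against 22.8%. The member shares were 16.0% and 28.4% on day 1, 28.4% and 42.0% on day 7, and 25.9% and 21.0% between the days. The falls against sham were a larger share of channel genes than of all genes, and between the days the shares lay near those of all genes.

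An FC of 2 or greater was met by fewer. On day 1, 6 of 81 rose and 8 fell by that much, against 7.79% and 2.98% of all tested genes. On day 7, 17 rose and 17 fell, against 15.3% and 5.88%. Between the days, 14 rose and 3 fell, against 8.55% and 2.69%. The median log2 FC of the 81 was -0.15 on day 1, -0.043 on day 7 and 0.025 between the days, beside -0.012, 0.026 and 0.021 for all tested genes.

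The split turned with the scale, as it did for all genes. By TPM, 17 channel genes rose and 12 fell on day 1 (against 40.3% and 4.82% of all genes), 35 and 16 on day 7 (61.6% and 6.68%), and 25 and 9 between the days (35.3% and 8.51%). Against cardiomyocyte markers, 35 rose and 9 fell on day 1 (62.2% and 2.87%), 52 and 8 on day 7 (81.2% and 2.31%), and 37 and 9 between the days (50.1% and 4.4%). These shares of all genes also stand beside the family counts by TPM and against cardiomyocyte markers below. Every rise under TMM was also called under both other scalings, 13 of 13, 23 of 23 and 21 of 21. Both scalings shift log2 FCs upward, so a rise could hardly fail here, and this is no test of the rises. Of the falls, 9 of 23 on day 1, 8 of 34 on day 7 and 8 of 17 between the days were called under all 3. The falls on day 1 that did not depend on the scale were those of Cacna1s, Cacng6, Hcn2, Kcnd2, Kcne1, Kcnip2, Kcnv2, Scn4a and Scn4b, and those on day 7 were of Cacna1s, Cacng6, Kcnip2, Kcnj11, Kcnj3, Kcnv2, Scn4a and Scn4b.

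**Figure D2:**
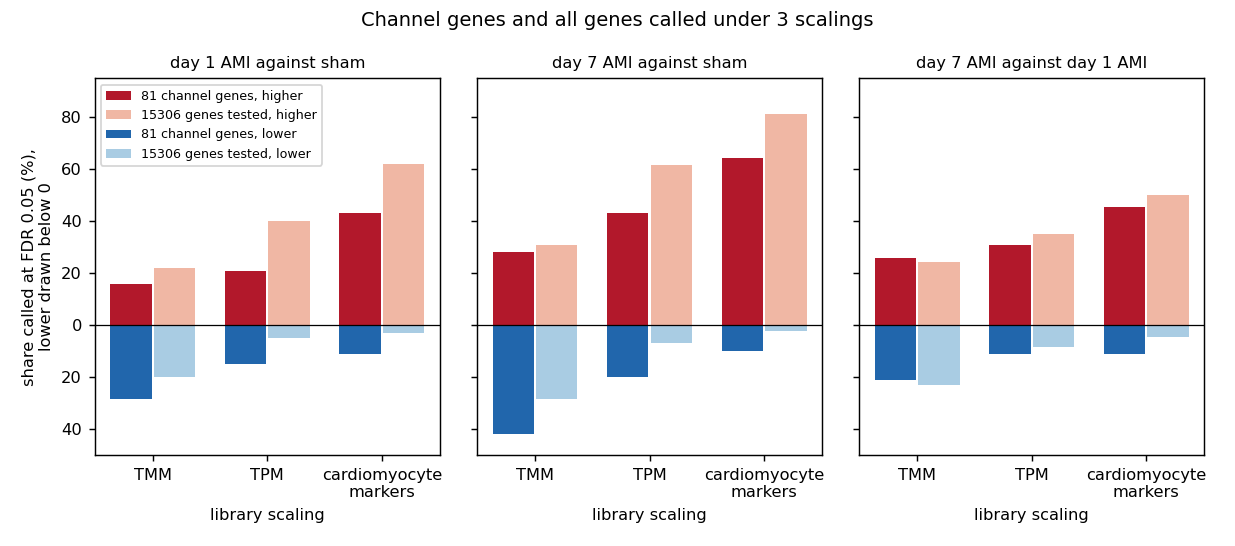
Share of the 81 tested channel genes and of all 15306 tested genes called at an adjusted p below 0.05 (y axis, %, falls drawn below 0) under 3 library scalings in 3 comparisons. Falls were a larger share of channel genes than of all genes against sham under each scaling, from 28.4% beside 19.9% on day 1 by TMM to 9.88% beside 2.31% on day 7 against cardiomyocyte markers.

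Levels in sham hearts spanned several orders of magnitude. A mean of at least 1 TPM was reached by 44 of the 142 genes and 10 TPM by 23, and the 10 most abundant held 71.5% of the summed TPM of all 142. By the deposited TPM, Kcnip2, which codes for KChIP2, led with 148 ± 19.3 TPM (SD, n = 4), followed by the background potassium channel Kcnk3 with 128 ± 17.3 TPM and the electrically silent potassium subunit Kcng2 with 116 ± 41.8 TPM. Kcng2 had the widest spread, and these neighbours did not differ beyond their SDs. Next came Kcnj11, the pore of the ATP-sensitive potassium channel, with 92.1 ± 14.4 TPM. Cacna1c, the pore of the cardiac L-type calcium channel, stood at 56.8 ± 7.53 TPM, close to Kcnh2 at 55.4 ± 10.002 TPM and the calcium channel subunit Cacna2d1 at 46.4 ± 7.61 TPM. Cacnb2 with 32.4 ± 2.59 TPM and Kcnj5 with 30.9 ± 3.83 TPM followed. The order turned with the transcript length used: with TPM recomputed from the counts and exon length, Kcnk3 led with 224 TPM ahead of Kcnip2 with 171 TPM, Kcnj5 stood at 52.8 TPM and Cacnb2 at 11.8 TPM.

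The order by the deposited TPM changed after AMI. On day 1 Kcng2 led with 181 ± 24.3 TPM while Kcnip2 stood at 41.7 ± 16.3 TPM. On day 7 Kcng2 and Kcnk3 held 94.2 ± 9.61 and 87.7 ± 7.04 TPM, and Kcnip2 71.2 ± 11.8 TPM. The TPM of all 142 genes summed to 1084 in sham hearts, 1100.3 on day 1 and 987 on day 7, so that the sum moved little while the order of its members changed.

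**Figure D3:**
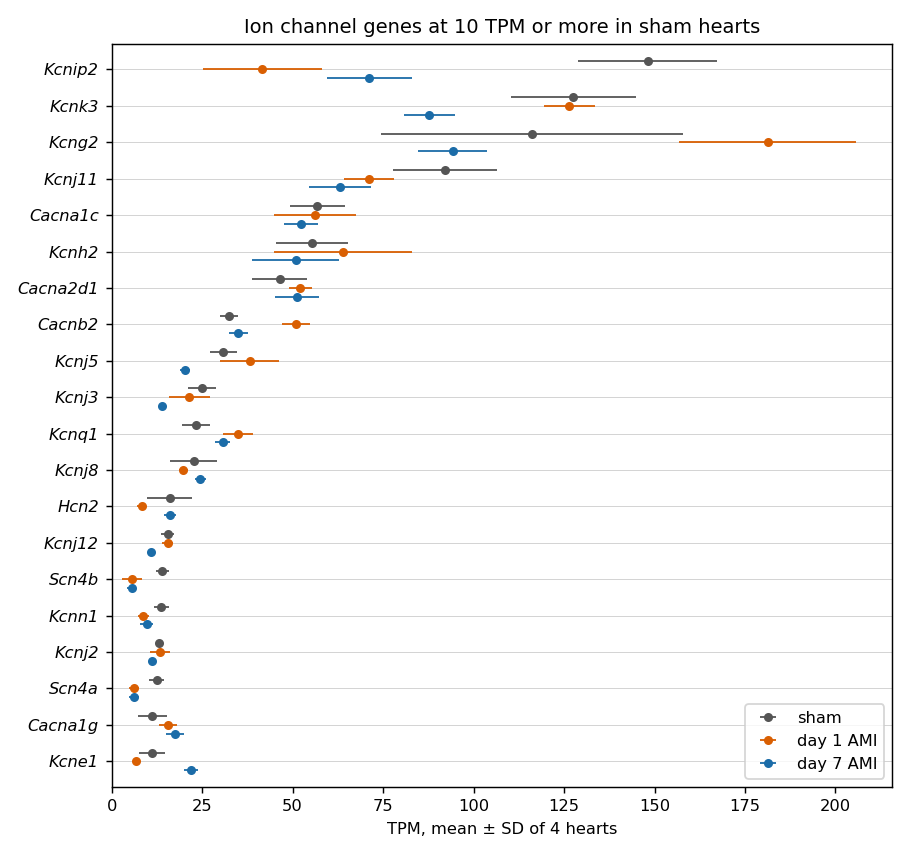
TPM (x axis, mean ± SD of 4 hearts) of 20 channel genes with a mean of at least 10 TPM in sham hearts, in sham (grey), day 1 AMI (orange) and day 7 AMI (blue) hearts. Kcnip2 went from 148 ± 19.3 TPM to 41.7 ± 16.3 TPM on day 1, and Kcnk3 from 128 ± 17.3 TPM to 87.7 ± 7.04 TPM on day 7.

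Sodium channel subunits changed in both directions. Scn4b, a beta subunit that shapes the resurgent and late sodium current, fell together with Scn4a, the skeletal muscle sodium channel. Scn4b held 67.3, 50.7, 69.4 and 57.5 CPM in sham hearts, 16.02, 8.68, 22.6 and 30.4 CPM on day 1 and 18.7, 14.2, 21.4 and 12.6 CPM on day 7. Every AMI heart lay below every sham heart, 3.15-fold lower on day 1 (log2 FC -1.66 ± 0.28, adjusted p = 0.000487) and 3.66-fold lower on day 7 (-1.87 ± 0.29, adjusted p = 6.8e-05). Scn4a fell from 53.7 ± 6.59 CPM (SD, n = 4) to 22.6 ± 8.23 CPM on day 1 and 19.1 ± 3.90 CPM on day 7, with log2 FCs of -1.25 ± 0.22, adjusted p = 0.000668 and -1.49 ± 0.23, adjusted p = 6.36e-05. Relative to cardiomyocyte markers Scn4b still fell, with log2 FCs of -1.14, adjusted p = 0.000817 on day 1 and -0.94, adjusted p = 0.00193 on day 7.

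Scn3b, another beta subunit, rose from 0.839 ± 0.214 to 2.39 ± 0.358 CPM by day 7 (log2 FC 1.51 ± 0.29, adjusted p = 0.000508), and Scn2b did not pass the filter.

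Scn7a, a sodium-sensing channel of glia and other non-muscle cells, fell by day 1 and stood near sham on day 7 by TMM. It held 34.4, 27.6, 28.0 and 31.9 CPM in sham, 18.8, 21.5, 17.4 and 20.6 CPM on day 1 and 26.6, 35.5, 36.0 and 35.2 CPM on day 7, with log2 FCs of -0.64 ± 0.11, adjusted p = 0.000624 and 0.13 ± 0.11, adjusted p = 0.343. The fall was not called by TPM or against cardiomyocyte markers, where the log2 FCs were -0.26, adjusted p = 0.0755 and -0.093, adjusted p = 0.559. On day 7 those scalings called Scn7a above sham (0.58, adjusted p = 0.000441 and 1.07, adjusted p = 2.85e-06). Between the days it rose by TMM (0.77, adjusted p = 0.000101) and under both other scalings. Scn2a, mainly a neuronal channel, stood at 0.156–0.534 CPM in sham and 0.918–1.85 CPM on day 7 (log2 FC 1.69 ± 0.38, adjusted p = 0.00153). The Schwann cell and neuron markers summed to 14.0–17.5 CPM in sham, 15.2–19.2 CPM on day 1 and 14.5–17.6 CPM on day 7, and 2 of 6 tested rose and 1 fell by day 7. Their part in these results was not tested. Of the rest, Scn10a fell on day 7 and Scn3a rose from day 1 to day 7.

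**Figure D4:**
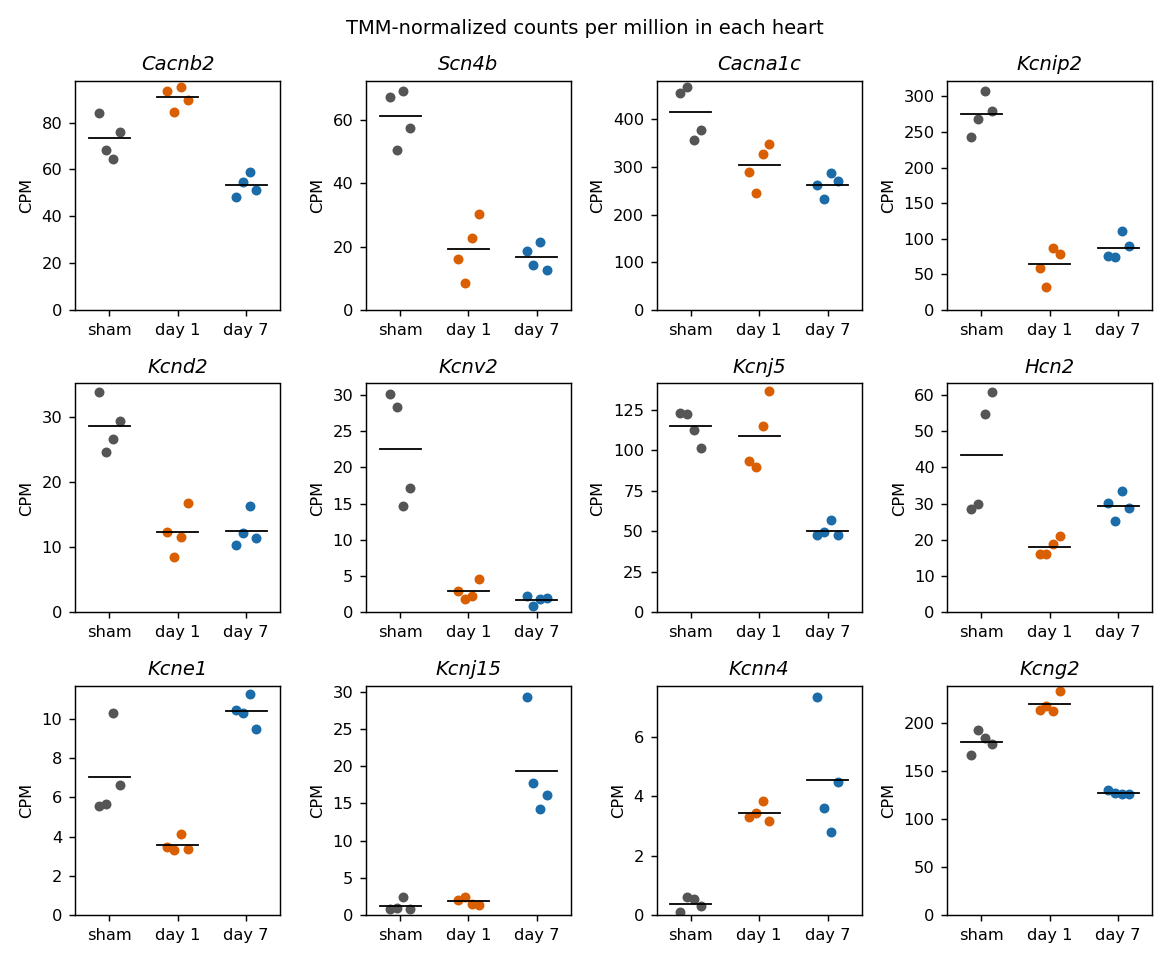
TMM-normalized CPM (y axes, linear from 0) of 12 channel genes in each of the 12 hearts, with a black line at each group's mean. Kcnip2, Kcnd2, Kcnv2 and Scn4b were lower in every AMI heart than in every sham heart, Cacnb2 and Kcng2 were highest in the 4 day 1 hearts, and Kcnj15 stood at 14.3–29.4 CPM on day 7, above all other hearts.

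The L-type calcium channel pore Cacna1c fell by TMM at both times. Of 6 tested pore genes, 0 rose and 2 fell (0 and 1 by TPM, 2 and 1 against cardiomyocyte markers) on day 1 and 1 rose and 3 fell (4 and 1 by TPM, 4 and 1 against cardiomyocyte markers) on day 7. Beside them, 22% of all tested genes rose and 19.9% fell by TMM on day 1, and 30.9% and 28.4% on day 7. Cacna1c (ENSMUSG00000051331, chr6:118587240-119196418 in GRCm38) held 456, 468, 357 and 377 CPM in sham hearts, 290.1, 246, 328 and 349 CPM on day 1 and 262, 233, 287 and 269.5 CPM on day 7. Each AMI heart was below each sham heart, with a log2 FC of -0.45 ± 0.12, adjusted p = 0.0086 on day 1 and -0.66 ± 0.12, adjusted p = 0.000324 on day 7. Against cardiomyocyte markers the log2 FC was 0.065, adjusted p = 0.674 and 0.27, adjusted p = 0.0674, and by TPM it was -0.029, adjusted p = 0.879 and -0.11, adjusted p = 0.46.

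Cacna1s, the calcium channel pore of skeletal muscle, fell most among the calcium channel pores. It held 19.7, 19.8, 17.8 and 19.5 CPM in sham hearts, 7.42, 3.49, 8.90 and 5.83 CPM on day 1 and 4.81, 3.63, 5.05 and 5.31 CPM on day 7, 3.00-fold lower on day 1 and 4.08-fold lower on day 7 than sham (log2 FC -1.59 ± 0.21, adjusted p = 9.97e-05 and -2.03 ± 0.22, adjusted p = 3.1e-06). No AMI heart reached a sham heart, and the fall was also called under both other scalings. Of its exon length, 19.98% overlaps a gene on the other strand, and the strand counted is not given in the sources used here. Skeletal muscle markers did not move one way. Of 9 listed, 4 were tested, and by day 7 Mybpc2 rose from 14.9 to 40.1 CPM (log2 FC 1.43, adjusted p = 4.86e-05), Tnnt3 rose as well (2.79, adjusted p = 2.83e-05), Atp2a1 fell (-1.15, adjusted p = 0.0153) and Pvalb had 0.16, adjusted p = 0.752. Their sum, 12.6–23.4 CPM in sham hearts and 36.3–50.8 CPM on day 7, was mostly Mybpc2, and their part in the fall of Cacna1s was not tested.

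Cacna1d, a calcium channel pore of sinoatrial and atrial cells, rose by day 7 from 2.23–3.97 to 5.22–6.90 CPM (log2 FC 0.91 ± 0.18, adjusted p = 0.000575). Cacna1g, a T-type pore, stood at 44.4 ± 4.55 CPM in sham, 45.8 ± 6.85 CPM on day 1 and 46.0 ± 5.43 CPM on day 7, and its log2 FC was 0.043 ± 0.12, adjusted p = 0.795 and 0.049 ± 0.12, adjusted p = 0.743. The 3 groups overlapped by TMM, while by TPM the day 7 value was 0.63, adjusted p = 0.0133. Cacna1h, the other T-type pore, had a log2 FC of -0.32 ± 0.12, adjusted p = 0.036 on day 7, turned to 0.44, adjusted p = 0.029 by TPM and 0.62, adjusted p = 0.00291 against cardiomyocyte markers, and its exact permutation p was 0.114. That call was lost without sham heart 1, 2 or 4 or day 7 heart 1, 3 or 4, with adjusted p up to 0.103.

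Accessory calcium channel subunits diverged. Of 9 tested alpha2delta, beta and gamma genes, 1 rose and 1 fell (2 and 1 by TPM, 3 and 1 against cardiomyocyte markers) on day 1 and 2 rose and 3 fell (4 and 1 by TPM, 7 and 1 against cardiomyocyte markers) on day 7. The shares of all tested genes by TMM were 22% and 19.9% on day 1, and 30.9% and 28.4% on day 7. The falls on day 7 were thus near the share of all genes. So were the 7 rises against cardiomyocyte markers, where 81.2% of all genes rose. Cacnb2, the main beta subunit of cardiac muscle, held 84.2, 68.4, 64.5 and 75.9 CPM in sham hearts, 93.3, 84.6, 95.4 and 89.9 CPM on day 1 and 48.1, 54.7, 59.1 and 51.0 CPM on day 7. It was highest on day 1, above every sham heart, and lowest on day 7, below every sham heart, with log2 FCs of 0.31 ± 0.092, adjusted p = 0.0152 and -0.46 ± 0.093, adjusted p = 0.000659 against sham and -0.77 ± 0.093, adjusted p = 1.92e-05 between the days. Without sham heart 3 the day 1 rise was 0.25, adjusted p = 0.0541, and the day 7 value turned to 0.11, adjusted p = 0.287 by TPM and 0.48, adjusted p = 0.000444 against cardiomyocyte markers.

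Cacnb3, a beta subunit of smooth muscle and other non-cardiomyocytes, rose late. It held 4.43, 5.13, 2.76 and 3.44 CPM in sham hearts, 5.77, 6.83, 5.95 and 4.19 CPM on day 1 and 22.9, 16.2, 12.3 and 17.2 CPM on day 7, 4.33-fold higher on day 7 than in sham (log2 FC 2.12 ± 0.22, adjusted p = 2.43e-06), and the day 7 hearts overlapped with no others. On day 1 its log2 FC was 0.52 ± 0.22, adjusted p = 0.0744, which passed without sham heart 2 or day 1 heart 4 (0.68, adjusted p = 0.0333 and 0.65, adjusted p = 0.0339). Cacng6, a gamma subunit of muscle, fell from 4.75, 3.04, 3.40 and 2.25 CPM to 0.688, 0.627, 1.18 and 0.914 CPM on day 1 and 0.37, 0.464, 0.406 and 1.16 CPM on day 7. Its log2 FCs were -1.97 ± 0.35, adjusted p = 0.000635 and -2.47 ± 0.37, adjusted p = 5.04e-05, so that by TMM it had the largest fall but Kcnv2 on day 7 and but Kcnv2 and Kcnip2 on day 1. Day 7 heart 4 stood above the other day 7 hearts and still below every sham heart. Cacna2d1, the alpha2delta subunit of cardiac L-type channels, had a log2 FC of -0.49 ± 0.15, adjusted p = 0.00987 on day 7 that turned to 0.15, adjusted p = 0.279 by TPM and 0.47, adjusted p = 0.0043 against cardiomyocyte markers.

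Transcripts of a pore and of the accessory protein of the fast transient outward current fell. Kcnip2 (ENSMUSG00000025221, chr19:45791839-45816061) held 242, 268, 308 and 279.8 CPM in sham hearts, 58.6, 32.8, 86.8 and 78.6 CPM on day 1 and 75.6, 74.6, 111 and 89.8 CPM on day 7. All AMI hearts were far below all sham hearts, 4.28-fold lower on day 1 (log2 FC -2.10 ± 0.23, adjusted p = 3.21e-05) and 3.13-fold lower on day 7 (-1.65 ± 0.23, adjusted p = 3.01e-05). Day 1 heart 2 was the lowest of all, and the day 1 and day 7 groups overlapped (log2 FC between the days 0.45 ± 0.23, adjusted p = 0.118, or 0.63, adjusted p = 0.0433 without day 1 heart 3). Against cardiomyocyte markers the log2 FC was -1.58, adjusted p = 1.89e-05 on day 1 and -0.72, adjusted p = 0.0032 on day 7.

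Kcnd2 (ENSMUSG00000060882, chr6:21215503-21729805), a Kv4 pore subunit of this current, held 33.9, 24.7, 26.7 and 29.4 CPM in sham hearts, 12.4, 8.44, 11.5 and 16.8 CPM on day 1 and 10.3, 12.2, 16.3 and 11.4 CPM on day 7. It was 2.33-fold lower on day 1 and 2.29-fold lower on day 7, again without overlap (log2 FC -1.22 ± 0.19, adjusted p = 0.00023 and -1.19 ± 0.19, adjusted p = 8.46e-05). Against cardiomyocyte markers the day 1 fall remained at -0.69, adjusted p = 0.00138 and the day 7 value was -0.26, adjusted p = 0.134. Kcnd3, the other Kv4 pore of the heart, fell less, from 21.8–26.5 CPM to 18.2–19.0 CPM and 13.1–16.6 CPM (log2 FC -0.41 ± 0.09, adjusted p = 0.00243 and -0.73 ± 0.091, adjusted p = 1.14e-05), and its sign turned to 0.12 and 0.21 against cardiomyocyte markers. By TMM, Kcna4, the pore of the slow transient outward current, rose on day 1 alone, from 1.64–2.20 CPM to 2.27–5.10 CPM (log2 FC 1.00 ± 0.27, adjusted p = 0.00963). It held 1.51–3.25 CPM on day 7 (0.11 ± 0.28, adjusted p = 0.766), while against cardiomyocyte markers it was also up then (1.06, adjusted p = 0.00474). Its change between the days was not called by TPM (-0.29, adjusted p = 0.154) or against those markers (-0.50, adjusted p = 0.158). Kcnd1, a Kv4 subunit with low levels in heart muscle, rose to 2.84–3.64 CPM on day 7 from 0.43–1.10 CPM in sham (log2 FC 2.05 ± 0.25, adjusted p = 8.89e-06).

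The stretches before the annotated starts of Kcnip2 and Kcnd2 are shown because these genes fell together. They are the 250 bases upstream of a RefSeq transcript start in build GRCm38.p6, printed 5′ to 3′ on the gene's strand, with GC boxes (GGGCGG, either strand) in capitals. The Kcnip2 window is chr19:45816064-45816313 on the minus strand and that of Kcnd2 is chr6:21215096-21215345 on the plus strand.
Kcnip2: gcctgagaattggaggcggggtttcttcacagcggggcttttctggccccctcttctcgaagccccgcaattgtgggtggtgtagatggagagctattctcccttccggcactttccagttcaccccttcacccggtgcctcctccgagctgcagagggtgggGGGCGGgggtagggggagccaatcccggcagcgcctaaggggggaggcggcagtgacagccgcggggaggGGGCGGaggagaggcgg
Kcnd2: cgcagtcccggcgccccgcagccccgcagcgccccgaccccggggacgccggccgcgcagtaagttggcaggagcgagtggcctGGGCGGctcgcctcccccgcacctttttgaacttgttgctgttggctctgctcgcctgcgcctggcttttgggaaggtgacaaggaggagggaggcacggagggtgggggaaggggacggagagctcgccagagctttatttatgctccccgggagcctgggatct
The Kcnip2 window holds 2 GC boxes with a GC content of 66.8%, and the Kcnd2 window holds 1 with 68.8%. In windows that also take the first 50 bases after the start, GC boxes were in 14 of 27 windows of the 23 genes lower on day 7 that have one (51.9%), in 64 of 139 windows of all channel genes (46.0%) and in 35.7% of all 32851 windows. A GATA match (AGATAA) was in none of the 27 windows, in 3.60% of the channel gene windows and in 11.2% of all windows. The AP-1 motif, written TGANTCA, was also in none, against 3.60% of channel gene windows and 7.81% of all windows. For the TATA box, TATAAA, the shares were none of the 27 windows, 5.04% of channel gene windows and 13.6% of all. Channel gene windows as a whole thus held these motifs less often than all windows, and 0 of 27 is close to their share. MEF2 and CArG box matches were likewise absent from the 27 windows, beside 2 and 0 of the 139 channel gene windows and 3.19% and 1.63% of all windows, and 1 held an NF-kB match. An E-box, CANNTG, was in 81.5% of the 27 windows and 72.3% of all. These are matches of letters, searched on both strands in motifs chosen with the expression values known, and say nothing of the factors.

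Among channel genes Kcnv2 had the largest fall on both days. Of the 21 tested Kv pore genes, 4 rose and 7 fell (5 and 2 by TPM, 8 and 2 against cardiomyocyte markers) on day 1, and 1 rose and 12 fell (3 and 3 by TPM, 10 and 1 against cardiomyocyte markers) on day 7. By TMM, 22% of all tested genes rose and 19.9% fell on day 1, and 30.9% and 28.4% on day 7, so that the share of Kv pore genes that rose on day 1 was near that of all genes. Kcnv2 (ENSMUSG00000047298, chr19:27322588-27337179), a silent subunit that joins Kv2 channels, held 30.1, 28.3, 14.6 and 17.2 CPM in sham hearts, 2.91, 1.85, 2.29 and 4.63 CPM on day 1 and 2.22, 0.889, 1.92 and 2.04 CPM on day 7. It was 7.72-fold lower on day 1 (log2 FC -2.95 ± 0.32, adjusted p = 2.62e-05) and 12.6-fold lower on day 7 (-3.66 ± 0.34, adjusted p = 7.67e-07). Sham hearts 1 and 2 were well above sham hearts 3 and 4, and every AMI heart was below all of them. Against cardiomyocyte markers the falls were -2.45, adjusted p = 2.29e-05 and -2.75, adjusted p = 1.85e-06.

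Kcng2, the other abundant silent subunit, took a course like that of Cacnb2. It held 166, 192, 184 and 178 CPM in sham hearts, 213, 218, 213 and 233 CPM on day 1 and 129.9, 127, 126 and 126 CPM on day 7, above all sham hearts on day 1 (log2 FC 0.28 ± 0.068, adjusted p = 0.00454) and below all of them on day 7 (-0.50 ± 0.069, adjusted p = 2.4e-05), and the day 7 value turned to 0.43, adjusted p = 0.00207 against cardiomyocyte markers. Kcna5, the pore of the ultrarapid delayed rectifier, spread widely on day 1, with 7.27, 20.5, 8.18 and 14.8 CPM against 24.9, 27.8, 18.2 and 23.4 CPM in sham and 17.1, 13.9, 18.4 and 14.4 CPM on day 7. Day 1 heart 2 overlapped with sham. The log2 FC was -0.89 ± 0.26, adjusted p = 0.0141 on day 1 and -0.56 ± 0.26, adjusted p = 0.0754 on day 7, with an exact permutation p of 0.0571 for both. Neither other scaling called the day 1 fall of Kcna5 (-0.59, adjusted p = 0.0676 by TPM and -0.34, adjusted p = 0.292 against cardiomyocyte markers).

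Subunits of the rapid and slow delayed rectifiers moved apart in time. Kcnh2, the pore of the rapid current, held 152, 166, 126 and 137 CPM in sham hearts, 116, 106, 133 and 153 CPM on day 1 and 65.0, 86.5, 91.0 and 83.4 CPM on day 7. Day 1 overlapped with sham and all day 7 hearts were below all others, with log2 FCs of -0.19 ± 0.13, adjusted p = 0.251 and -0.83 ± 0.13, adjusted p = 8.12e-05. The day 7 value was 0.094, adjusted p = 0.551 against cardiomyocyte markers and -0.14, adjusted p = 0.569 by TPM. Kcnq1, the pore of the slow current, had a log2 FC of 0.27 ± 0.096, adjusted p = 0.0386 on day 1, with an exact permutation p of 0.0857 and the call was lost without sham or day 1 heart 1, 3 or 4, with adjusted p up to 0.11. On day 7 it was -0.20 ± 0.096, adjusted p = 0.0912 (-0.25, adjusted p = 0.0437 without sham heart 1), turned to 0.40, adjusted p = 0.00969 by TPM and 0.73, adjusted p = 6e-05 against cardiomyocyte markers.

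Kcne1, the accessory subunit of the slow current, first fell and then rose. It held 5.58, 5.67, 10.3 and 6.65 CPM in sham hearts, 3.44, 3.31, 4.12 and 3.37 CPM on day 1 and 10.4, 10.3, 11.3 and 9.49 CPM on day 7. The 4 day 1 hearts were below every sham heart, and the day 7 hearts lay above all sham hearts but number 3. Its log2 FC was -0.98 ± 0.18, adjusted p = 0.000815 on day 1, 0.56 ± 0.17, adjusted p = 0.0127 on day 7 and 1.54 ± 0.18, adjusted p = 1.43e-05 between the days, all called under the 3 scalings, and the exact permutation p on day 7 was 0.0571.

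Other accessory subunits of potassium channels included Kcne4 and Kcnab2, which rose. Of 9 tested accessory genes (Kcne, Kcnip and Kcnab), Kcne1 included, 2 rose and 2 fell (2 and 2 by TPM, 5 and 2 against cardiomyocyte markers) on day 1, and 5 rose and 1 fell (8 and 1 by TPM, 8 and 1 against cardiomyocyte markers) on day 7. By TMM, 22% of all tested genes rose and 19.9% fell on day 1, which the day 1 counts were near. On day 7 the shares of all genes were 30.9% and 28.4%. Rises against cardiomyocyte markers on day 7 took in 81.2% of all genes, and the 8 of 9 were near that share. Kcne4, an inhibitory subunit of several Kv channels, held 2.19, 3.61, 2.81 and 3.78 CPM in sham hearts, 6.35, 10.2, 4.74 and 7.35 CPM on day 1 and 12.9, 10.51, 11.3 and 14.1 CPM on day 7. Each group lay apart from sham, 2.31-fold higher on day 1 and 3.92-fold higher on day 7 (log2 FC 1.21 ± 0.23, adjusted p = 0.000929 and 1.97 ± 0.23, adjusted p = 5.38e-06). Kcnab2, a cytosolic beta subunit, rose 3.84-fold by day 1, from 1.55–3.33 CPM to 8.22–10.98 CPM, and was at 5.49–8.38 CPM on day 7 (log2 FC 1.94 ± 0.22, adjusted p = 3.21e-05 and 1.51 ± 0.22, adjusted p = 4.08e-05). Kcne1l and Kcne3, further Kcne genes, stood at low counts, 38 and 29 in day 7 heart 1, and rose on day 7 with log2 FCs of 1.34 ± 0.46, adjusted p = 0.0222 and 1.75 ± 0.59, adjusted p = 0.0201. These 2 calls were lost when sham heart 2 was left out (1.27, adjusted p = 0.053 and 1.55, adjusted p = 0.0574), and that of Kcne3 also without sham heart 4 or day 7 heart 1 (adjusted p = 0.0527 and 0.0516).

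Inward rectifiers of cardiac muscle fell by day 7 on the TMM scale. Of 9 tested Kcnj genes, 1 rose and 4 fell (1 and 1 by TPM, 4 and 0 against cardiomyocyte markers) on day 1, and 2 rose and 6 fell (2 and 4 by TPM, 4 and 2 against cardiomyocyte markers) on day 7. For all tested genes the TMM shares were 22% and 19.9% on day 1, and 30.9% and 28.4% on day 7. Kcnj2 and Kcnj12 carry the current that sets the resting potential. Kcnj2 held 58.1–70.5 CPM in sham, 35.6–59.3 CPM on day 1 and 32.4–40.6 CPM on day 7 (log2 FC -0.31 ± 0.13, adjusted p = 0.0767 and -0.79 ± 0.13, adjusted p = 0.000168), and without day 1 heart 4 the day 1 value was -0.39, adjusted p = 0.0403. Kcnj12 held 25.7–31.2, 20.3–25.4 and 13.2–15.1 CPM, with log2 FCs of -0.31 ± 0.09, adjusted p = 0.0132 and -1.05 ± 0.092, adjusted p = 5.27e-07. Both were lower in every day 7 heart than in every sham heart, and against cardiomyocyte markers neither was called on day 7 (0.16, adjusted p = 0.264 and -0.12, adjusted p = 0.423).

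Kcnj3 and Kcnj5 form the acetylcholine-activated channel, which is most abundant in atria. Kcnj5 held 123, 123, 112 and 101 CPM in sham hearts, 93.6, 90.0, 115 and 137 CPM on day 1 and 47.9, 49.6, 57.0 and 47.5 CPM on day 7, with day 1 on both sides of the sham range and every day 7 heart far below it. Its log2 FC was -0.078 ± 0.12, adjusted p = 0.636 on day 1, -1.19 ± 0.13, adjusted p = 2.5e-06 on day 7 and -1.11 ± 0.12, adjusted p = 1.09e-05 between the days. Kcnj3 held 114, 97.1, 73.0 and 96.2 CPM in sham hearts, 60.3, 42.0, 68.8 and 89.9 CPM on day 1 and 33.6, 39.6, 34.9 and 34.2 CPM on day 7, with log2 FCs of -0.54 ± 0.18, adjusted p = 0.0278 and -1.42 ± 0.19, adjusted p = 1.74e-05. The day 1 call of Kcnj3 was lost without sham heart 1 or 4 (adjusted p = 0.0854 and 0.0543) and without day 1 heart 1 or 2 (adjusted p = 0.0725 and 0.0684), and 31.1% of its exon length overlaps a gene on the other strand. Against cardiomyocyte markers Kcnj3 still fell on day 7 (-0.48, adjusted p = 0.0211) and Kcnj5 had -0.26, adjusted p = 0.0676. Atrial cardiomyocyte markers did not move alike. The list summed to 103–888 CPM in sham, 495–1277 CPM on day 1 and 1234–1878 CPM on day 7, but the sum followed Nppa, a natriuretic peptide gene that went from 219.8 to 1462 CPM (log2 FC 2.73, adjusted p = 0.00071). Of the other 6 genes, Nr2f2 and Dhrs9 rose and Bmp10 fell by day 7 (-5.28, adjusted p = 0.00453), while Myl7 went from 35.4 to 20.8 CPM (log2 FC -0.77, adjusted p = 0.229) and Myl4 and Sln were not called. The part of these markers in these results was not tested.

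Pores of the ATP-sensitive potassium channel, which opens when cellular ATP drops, fell at both times by TMM. Kcnj11, the cardiomyocyte pore, held 216, 235, 218 and 201 CPM in sham hearts, 130.1, 114, 146 and 157 CPM on day 1 and 93.8, 87.1, 109 and 89.3 CPM on day 7. The 3 groups did not overlap, with log2 FCs of -0.67 ± 0.10, adjusted p = 0.000236 on day 1, -1.20 ± 0.10, adjusted p = 4.99e-07 on day 7 and -0.53 ± 0.10, adjusted p = 0.000888 between the days, and -0.15, adjusted p = 0.235 and -0.27, adjusted p = 0.0272 against cardiomyocyte markers. Kcnj8, the vascular pore, held 29.9, 50.6, 54.5 and 51.2 CPM in sham, with 30.6–35.4 CPM on day 1 and 32.3–38.3 CPM on day 7. Sham heart 1 lay below every AMI heart, while sham hearts 2, 3 and 4 lay above them all. The log2 FCs of -0.50 ± 0.14, adjusted p = 0.0136 and -0.42 ± 0.14, adjusted p = 0.0208 had exact permutation p-values of 0.143 each. Without sham heart 1 they were -0.66, adjusted p = 0.000161 and -0.59, adjusted p = 4.99e-05, and the day 7 call was lost without sham heart 2, 3 or 4 or day 7 heart 2 or 4, with adjusted p up to 0.0694. The day 7 value turned to 0.16, adjusted p = 0.432 by TPM and 0.50, adjusted p = 0.00808 against cardiomyocyte markers.

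Kcnj15 (ENSMUSG00000062609, chr16:95257558-95300260), an inward rectifier known mainly from epithelia, had the largest rise of all channel genes on day 7. It held 0.73, 0.945, 2.43 and 0.813 CPM in sham hearts, 2.06, 2.39, 1.505 and 1.32 CPM on day 1 and 29.4, 17.8, 14.3 and 16.1 CPM on day 7. It was 15.8-fold higher on day 7 than in sham (log2 FC 3.98 ± 0.35, adjusted p = 5.41e-07) and 10.6-fold higher than on day 1 (3.41 ± 0.33, adjusted p = 2.78e-06). On day 1 the log2 FC was 0.57 ± 0.37, adjusted p = 0.242, and without sham heart 3 it was 1.12, adjusted p = 0.0196. Kcnj14, another inward rectifier, rose from 0.246–1.10 CPM to 1.01–1.86 CPM and 1.70–3.36 CPM (log2 FC 1.03 ± 0.38, adjusted p = 0.0419 and 1.69 ± 0.37, adjusted p = 0.0013). Its day 1 call was lost without sham heart 1 or 2 or day 1 heart 1, 3 or 4, with adjusted p up to 0.0975.

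Background potassium channels moved in both directions. Of 5 tested Kcnk genes, 2 rose and 1 fell (2 and 0 by TPM, 3 and 0 against cardiomyocyte markers) on day 1 and 3 rose and 1 fell (3 and 1 by TPM, 4 and 0 against cardiomyocyte markers) on day 7. Over all tested genes, 22% rose and 19.9% fell by TMM on day 1, and 30.9% and 28.4% on day 7. The day 7 rises on the other scales were near those of all genes, 61.6% by TPM and 81.2% against cardiomyocyte markers. Kcnk3, an acid-sensitive background channel, held 424, 437, 441 and 352 CPM in sham hearts, 325, 308, 354 and 332 CPM on day 1 and 193, 185, 189 and 202 CPM on day 7. Every day 7 heart was well below every other heart, with log2 FCs of -0.33 ± 0.085, adjusted p = 0.0072 on day 1 and -1.10 ± 0.086, adjusted p = 1.89e-07 on day 7. By TPM the day 7 fall was -0.53, adjusted p = 0.000415, and against cardiomyocyte markers the log2 FC was -0.17, adjusted p = 0.194. Kcnk13, a halothane-inhibited channel of microglia and macrophages, rose from 0.478–1.60 CPM to 2.26–3.34 CPM on day 1 and 1.99–3.30 CPM on day 7 (log2 FC 1.55 ± 0.32, adjusted p = 0.00162 and 1.54 ± 0.32, adjusted p = 0.000794). Kcnk2, a mechanosensitive channel, rose on day 7 to 4.90–6.10 CPM from 0.78–4.03 CPM (log2 FC 1.32 ± 0.37, adjusted p = 0.00629), with no overlap. Of its exon length, 12.2% overlaps a gene on the other strand.

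Calcium-activated potassium channels mostly rose by day 7, and the cardiomyocyte pore Kcnn2 fell by TMM. Of 8 tested genes of calcium- and sodium-activated channels, 1 rose and 2 fell (1 and 2 by TPM, 3 and 0 against cardiomyocyte markers) on day 1, and 5 rose and 2 fell (5 and 2 by TPM, 6 and 0 against cardiomyocyte markers) on day 7. All tested genes had TMM shares of 22% and 19.9% on day 1, and 30.9% and 28.4% on day 7. Against cardiomyocyte markers 81.2% of all genes rose on day 7, so the rises on that scale were near that share. Kcnn4 (ENSMUSG00000054342, chr7:24370263-24386690), the intermediate-conductance channel of leukocytes and proliferating fibroblasts, held 0.104, 0.616, 0.534 and 0.287 CPM in sham hearts, 3.29, 3.43, 3.86 and 3.18 CPM on day 1 and 7.37, 3.59, 2.80 and 4.49 CPM on day 7. All AMI hearts were above all sham hearts, 8.62-fold higher on day 1 (log2 FC 3.11 ± 0.39, adjusted p = 6.18e-05) and 11.5-fold higher on day 7 (3.52 ± 0.39, adjusted p = 3.42e-06), the largest rise of any channel gene on day 1. Sham heart 1 was at 2 counts, under the floor, and the other sham hearts held 15, 11 and 6 counts.

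Kcnma1, the pore of the large-conductance channel of smooth muscle, rose late from a level near the floor. It held 0.209, 0.164, 0.194 and 0.143 CPM in sham hearts, 0.382, 0.269, 0.229 and 0.0946 CPM on day 1 and 2.06, 1.08, 1.03 and 1.26 CPM on day 7. The day 7 hearts lay apart from all others, with a log2 FC of 2.92 ± 0.40, adjusted p = 2.8e-05 against sham and 2.49 ± 0.36, adjusted p = 9.73e-05 against day 1. Kcnmb1 and Kcnn3, its smooth muscle beta subunit and a small-conductance pore, rose by day 7 as well, with log2 FCs of 0.94, adjusted p = 0.00627 and 1.23, adjusted p = 6.95e-05. Kcnn2, a small-conductance channel of cardiomyocytes, fell from 20.7–22.9 CPM to 7.79–14.4 CPM and 7.37–13.4 CPM (log2 FC -0.85 ± 0.19, adjusted p = 0.00277 and -1.02 ± 0.19, adjusted p = 0.00035), with -0.082, adjusted p = 0.662 on day 7 against cardiomyocyte markers.

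Of the other marker lists, those of leukocytes, macrophages, fibroblasts, endothelial cells, T and NK cells and proliferation mostly rose by day 7. Leukocyte markers summed to 72.7–124 CPM in sham, 273–397 CPM on day 1 and 269–449 CPM on day 7, and 8 of 8 rose at both times. Macrophage markers went from 199–326 CPM to 338–454 CPM and 463–733 CPM, with 6 of 8 up on day 1 and 8 of 8 on day 7. Those for fibroblasts summed to 1141–1394, 1726–2361 and 7019.6–14490.0 CPM, with 5 of 8 up and 2 down on day 1 and 8 of 8 up on day 7. For mural and smooth muscle cells the sums were 2883–3445, 3561–5008 and 2843–3233 CPM, with 5 of 8 up on day 7 while the sum overlapped with sham. Neutrophil markers summed to 2.77–58.2, 47.0–166 and 8.15–39.0 CPM, with 3 of 6 tested up on day 1, 1 up and 1 down on day 7, and 4 down between the days. Endothelial markers summed to 901–1046, 792–837 and 1225–1370 CPM, with 3 of 8 down on day 1 and 6 of 8 up on day 7. By day 7, 4 of 5 tested T and NK cell markers and 5 of 5 proliferation markers rose. Of 5 erythroid markers, 3 fell at each time, with sums of 491–4450, 420–649 and 241–969 CPM. Sham heart 2 held the 4450 CPM, far above the other sham hearts, whose highest was 1178 CPM, and the groups overlapped. None of these markers was at 0 in all hearts, and their part in the rises of channel genes was not tested.

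The stretches before the starts of Kcnn4 and Kcnj15 are shown as those of the largest rises on day 1 and day 7, in the same format. They lie at chr7:24370013-24370262 on the plus strand and chr16:95257308-95257557 on the plus strand.
Kcnn4: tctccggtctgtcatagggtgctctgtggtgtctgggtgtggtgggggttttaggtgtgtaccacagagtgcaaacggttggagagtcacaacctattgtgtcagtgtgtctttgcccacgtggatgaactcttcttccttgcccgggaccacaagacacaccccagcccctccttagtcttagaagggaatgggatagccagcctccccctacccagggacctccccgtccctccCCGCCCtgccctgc
Kcnj15: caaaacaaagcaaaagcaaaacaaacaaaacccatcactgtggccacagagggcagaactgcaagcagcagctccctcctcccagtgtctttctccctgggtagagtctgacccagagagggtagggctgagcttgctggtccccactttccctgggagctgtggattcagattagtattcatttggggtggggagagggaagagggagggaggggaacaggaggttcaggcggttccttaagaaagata
The Kcnn4 window holds 1 GC box on the other strand (CCGCCC) with a GC content of 58.8%, and that of Kcnj15 holds none with 53.2%. AP-1 matches were in 2 of 25 windows of the 16 genes higher on day 7 that have one (8%), beside 7.81% of all windows, and TATA boxes in 3 of 25 (12%), beside 13.6%. NF-kB matches were in none of the 25 windows, 7.19% of the windows of all channel genes and 4.51% of all windows.

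Of the pacemaker channels, Hcn2 fell by day 1, and by TMM Hcn4 fell between the days. Hcn2, the main HCN channel of ventricle, held 28.6, 29.9, 54.7 and 60.9 CPM in sham hearts, 16.02, 15.99, 18.9 and 21.1 CPM on day 1 and 30.2, 25.3, 33.4 and 28.8 CPM on day 7. Sham hearts 3 and 4 were well above sham hearts 1 and 2, and every day 1 heart was below every sham heart (log2 FC -1.27 ± 0.22, adjusted p = 0.000442). On day 7 the hearts lay among the lower sham hearts, with a log2 FC of -0.56 ± 0.21, adjusted p = 0.0328 and an exact permutation p of 0.257. The day 7 call was lost without sham heart 3 or 4 or day 7 heart 1, 2 or 4, with adjusted p up to 0.134, and it turned to 0.065, adjusted p = 0.8 by TPM and 0.39, adjusted p = 0.0597 against cardiomyocyte markers.

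Hcn4, the sinoatrial isoform, held 26.2, 22.3, 21.6 and 14.4 CPM in sham, 23.0, 26.7, 24.3 and 33.4 CPM on day 1 and 20.6, 13.2, 12.2 and 15.7 CPM on day 7. It fell from day 1 to day 7 (log2 FC -0.80 ± 0.19, adjusted p = 0.00326), while against sham it was 0.35 ± 0.19, adjusted p = 0.151 and -0.45 ± 0.19, adjusted p = 0.055. Without sham heart 4 or day 7 heart 1 the latter was -0.60, adjusted p = 0.00994 and -0.62, adjusted p = 0.0111. The fall between the days was -0.48, adjusted p = 0.0451 by TPM and -0.39, adjusted p = 0.128 against cardiomyocyte markers. Both scalings called a rise on day 1 (0.56, adjusted p = 0.0207 and 0.87, adjusted p = 0.00203). On day 7 the value against cardiomyocyte markers was 0.49, adjusted p = 0.0414.

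**Figure D5:**
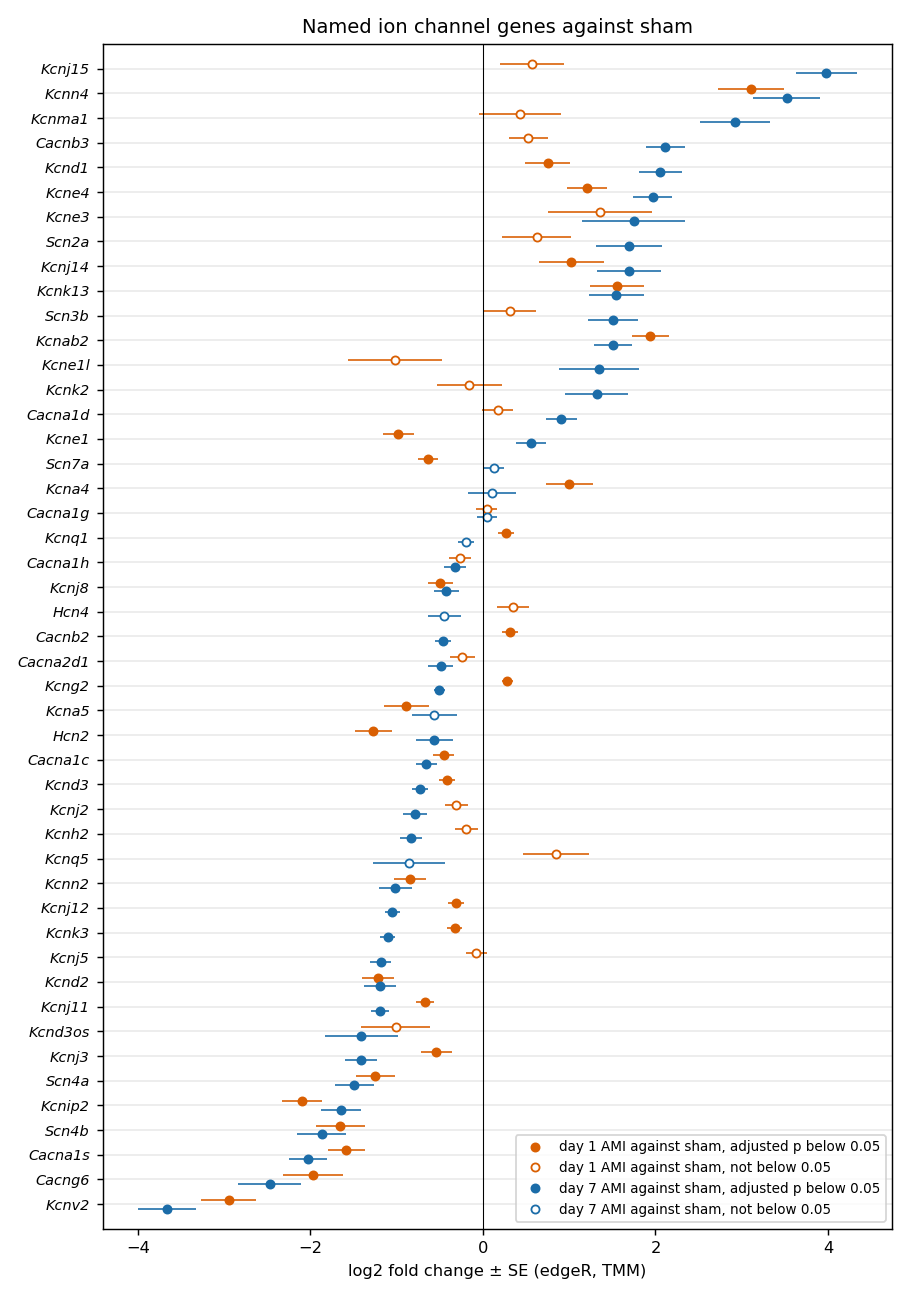
Log2 FC against sham (x axis, ± SE from edgeR with TMM) of 47 named channel genes on day 1 (orange) and day 7 (blue), ordered by the day 7 value, with filled points at an adjusted p below 0.05. The values run from -3.66 for Kcnv2 to 3.98 for Kcnj15 on day 7, and Cacnb2 and Kcng2 lie above 0 on day 1 and below 0 on day 7, which turned to above 0 for both against cardiomyocyte markers.

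The timing of the calls fell into a few courses by TMM. At least 1 of the 3 comparisons was called for 67 of the 81 genes and none for 14. Against sham, 20 genes were lower at both times and 8 were higher at both times. A further 11 were lower on day 7 only and 14 were higher on day 7 only. Among all tested genes, 22% rose and 19.9% fell on day 1, and 30.9% and 28.4% on day 7. Between the days 24.2% rose and 22.8% fell. Courses were not counted over all genes, so those of the 81 are not read as particular to channel genes. Opposite calls were also made at the 2 times: Cacnb2 and Kcng2 were up on day 1 and below sham on day 7, and Kcne1 did the reverse. The 2 comparisons share the sham hearts, so their calls are not independent. Between day 1 and day 7 themselves, Cacnb2 and Kcng2 fell and Kcne1 rose under all 3 scalings. By TMM, only Kcna4 and Kcnq1 were called up on day 1 and down from day 1 to day 7 with no call against sham on day 7. Against cardiomyocyte markers both were called up on day 7 (1.06, adjusted p = 0.00474 and 0.73, adjusted p = 6e-05).

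The 61 genes that did not pass the filter had at most 33 counts in any heart, 29 of them had more than 3 counts in some heart, and 9 had none in any heart. They include the pore genes Scn1a, Scn8a and Scn9a, the pacemaker gene Hcn3, and Kcne2, an accessory subunit of the rapid delayed rectifier. Of the noncoding transcripts, Kcnq1ot1, which overlaps Kcnq1 as an imprinted antisense RNA, stood at 6.28 ± 0.354, 6.03 ± 0.981 and 6.10 ± 0.588 CPM with log2 FCs of -0.057 ± 0.14, adjusted p = 0.761 and -0.043 ± 0.14, adjusted p = 0.804. Kcnd3os, on the strand opposite to Kcnd3, fell by day 7 (log2 FC -1.41 ± 0.42, adjusted p = 0.00988) at 0.154–0.272 CPM. Without a stated strand, its reads and those of Kcnd3 cannot be told apart where they overlap, over 12.2% of its exon length. Opposite-strand overlap was also found over 9.10% of Kcng2, 7.32% of Cacnb2, 8.13% of Kcnn2, 5.99% of Kcnma1, 5.76% of Kcnk3 and 5.28% of Kcnj15.

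Genes known to work with these channels, outside the rule, were also counted. Of 24 listed partners, 18 were tested, of which 1 rose and 7 fell (7 and 3 by TPM, 10 and 2 against cardiomyocyte markers) on day 1, and 3 rose and 12 fell (6 and 4 by TPM, 8 and 0 against cardiomyocyte markers) on day 7. Of all tested genes, 22% rose and 19.9% fell by TMM on day 1, and 30.9% and 28.4% on day 7. By TMM, Abcc9 and Abcc8, the sulfonylurea receptors that pair with the ATP-sensitive pores, fell to 227 CPM from 482 CPM and to 37.0 CPM from 61.6 CPM by day 7 (log2 FC -1.09, adjusted p = 2.26e-05 and -0.74, adjusted p = 9.93e-05). On day 1 they had -0.91, adjusted p = 0.000323 and -1.12, adjusted p = 2.4e-05, and Abcc8 rose between the days (0.38, adjusted p = 0.0167). Against cardiomyocyte markers both fell on day 1 (-0.38, adjusted p = 0.0101 and -0.59, adjusted p = 0.000887). On day 7 neither was called on that scale (-0.15, adjusted p = 0.237 and 0.19, adjusted p = 0.164). Cav3, the muscle caveolin, rose by day 1 and was below sham on day 7 by TMM, with log2 FCs of 0.68, adjusted p = 0.000119 on day 1 and -0.69, adjusted p = 3e-05 on day 7. Of 11 transcription factors of channel gradients and conduction tissue, 10 were tested, of which 0 rose and 3 fell (2 and 0 by TPM, 5 and 0 against cardiomyocyte markers) on day 1, and 2 rose and 6 fell (3 and 1 by TPM, 7 and 0 against cardiomyocyte markers) on day 7. By TMM, Tbx5 fell at both times (-0.72, adjusted p = 0.000338 and -1.25, adjusted p = 1.1e-06), and Irx3 did as well (-0.46, adjusted p = 0.0128 and -0.79, adjusted p = 0.000175).

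The members most like Kcnip2 over the 12 hearts were Scn4b, Kcnd2 and Scn4a, with Pearson r of log2 CPM of 0.93 each. After removal of the group means, r was 0.83, 0.66 and 0.88. For Kcnn4 they were Kcnk13 (0.92), Kcnk6 (0.89) and Kcnab2 (0.88), with 0.62, 0.57 and 0.26 within groups. These values describe 12 hearts that share 3 groups and the library scaling.

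Two-sided permutation tests, exact over the 4 hearts of each group, were also run for 47 named genes and cannot give a p below 0.0286. Of the genes called on day 1, 22 of 29 were at that smallest p, on day 7 35 of 40, and between the days 25 of 27. The exceptions with p of at least 0.0571 were Kcna5, Kcnd1, Kcnj14, Kcnj3, Kcnj8, Kcnk3 and Kcnq1 on day 1, Cacna1h, Cacna2d1, Hcn2, Kcne1 and Kcnj8 on day 7, and Kcna4 and Kcnj2 between the days.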

How the data were processed

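RNA-seq was performed on 12 whole mouse hearts, 4 per group. The authors deposited raw read counts per gene and TPM values per gene for each heart, and the submitters' processing notes name CASAVA 1.8, STAR 2.4.0j, RSEM and the mm10 build. The tool behind the counts and the strand counted are not given in the sources used here. Samples were grouped by the labels.

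Genes were kept by edgeR's filterByExpr (15306 of 53801), scaled by TMM and tested in a single edgeR 4.0.16 quasi-likelihood fit of the 3 groups, with Benjamini-Hochberg adjustment over all tested genes (threshold 0.05). CPM values are TMM-scaled counts. Log2 values used a prior count of 2. TPM was tested as log2(TPM + 1) with limma 3.58.1, and DESeq2 1.42.0 was an alternative. R 4.3.3, Python 3.11.15, pandas 2.3.3, SciPy 1.17.1 and matplotlib 3.10.9 were used. Gene positions and exon overlaps came from GENCODE M21.

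On simulated data for day 1 against sham (15306 genes, 200 changed), edgeR recovered 187 changed genes, 88 at a fold of 2 and 99 at a fold of 4, with 11 false calls, limma 187 with 12, and DESeq2 194 with 27. The changed genes were drawn only from those with a mean above 1 CPM, so the recovery does not cover genes below that level. Every pair of libraries of the same group differed by more than sampling noise (lowest chi-square divided by its degrees of freedom, 8.84). Libraries held 23204551 to 32166517 counts.

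The channel genes and lists were chosen with earlier results of these data known. Named genes were 32 core cardiac channel genes, the 8 largest changes past the threshold per comparison and direction with at least 0.5 CPM in a group, and the 10 highest TPM values in sham. Genes outside that rule were named after their values were seen, to complete a count. Some genes taken by the rule are not reported here. RefSeq promoter windows matched 103 of 142 channel genes.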

Additional observations from a re-analysis of the deposited data

Results flagged for a closer look

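In 5 of 141 groups of 4 hearts over 47 named channel genes, 1 heart stood apart from the other 3 by Dixon's criterion, which chance meets in about 1 of 20 groups. Cacng6 stood at 1.16 CPM in day 7 heart 4, with 0.370 to 0.464 CPM in the others. Kcne1 stood at 4.12 CPM in day 1 heart 3, with 3.31 to 3.44 CPM in the others. Kcnj15 stood at 2.43 CPM in sham heart 3, with 0.730 to 0.945 CPM in the others. Kcnj8 stood at 29.9 CPM in sham heart 1, with 50.6 to 54.5 CPM in the others. Scn7a stood at 26.6 CPM in day 7 heart 1, with 35.2 to 36.0 CPM in the others.

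The changes against sham differed in sign between day 1 and day 7 for Cacnb2, Kcng2 and Kcne1, each with a difference between the days that passed the test in edgeR's fit. The log2 FC of day 7 against day 1 was -0.77 for Cacnb2 (adjusted p = 1.92e-05), -0.79 for Kcng2 (adjusted p = 1.31e-06) and 1.54 for Kcne1 (adjusted p = 1.43e-05). In each case all 4 day 7 hearts lay on that side of all 4 day 1 hearts.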

How the results depend on the processing

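Depth and 4 hearts per group limit small changes of genes at a few counts. The scale limits directions most. Of 141 log2 FCs of 47 named genes, 140 kept their side of the threshold, with no called value changing sign, with DESeq2 and with RLE size factors, and 138 without the count filter. With only the compared groups in the fit, where fewer genes passed the filter, 5 calls were lost and 2 gained. Leaving out a heart kept 1062 of 1128 values on their side, lost 43 calls and added 23.

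Scaled to cardiomyocyte markers, 34 log2 FCs turned from negative to positive, of which 15 were called on neither scale. The other 19 were called on at least 1 of the 2 scales. On day 1 they were 0.065 for Cacna1c, 0.12 for Kcnd3, 0.22 for Kcnj12, 0.44 for Kcnj5, 0.033 for Kcnj8 and 0.20 for Kcnk3. On day 7 they were 0.27 for Cacna1c, 0.62 for Cacna1h, 0.47 for Cacna2d1, 0.48 for Cacnb2, 0.39 for Hcn2, 0.49 for Hcn4, 0.21 for Kcnd3, 0.43 for Kcng2, 0.094 for Kcnh2, 0.16 for Kcnj2, 0.50 for Kcnj8 and 0.73 for Kcnq1. Between the days it was 0.092 for Kcnd3. By TPM, 20 changed sign with a pseudocount of 1 and 19 with 0.1, of which 13 and 12 were called on neither scale. The other 7 were the same values with both: on day 1 Kcnj12 (0.0081 and 0.0087), and on day 7 Cacna1h (0.44 and 0.52), Cacna2d1 (0.15 and 0.15), Cacnb2 (0.11 and 0.11), Hcn2 (0.065 and 0.073), Kcnj8 (0.16 and 0.17) and Kcnq1 (0.40 and 0.41). Both scalings raise the median of all genes, and no further cause was tested.

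Counts of channel genes moved by more than 1.5 times under these scalings. Against cardiomyocyte markers, 17 rose and 5 fell by an FC of 2 on day 1 (6 and 8 by TMM), 37 and 3 on day 7 (17 and 17) and 1 fell between the days (3), and at any FC 35 and 9, 52 and 8, and 37 and 9 were called. Of all tested genes, 18.9% rose and 0.791% fell by an FC of 2 on day 1, 47.1% and 0.516% on day 7, and 0.98% fell between the days. The rises of channel genes by an FC of 2, 21.0% on day 1 and 45.7% on day 7, were near those shares. By log2(TPM + 1), 3 and 5 passed an FC of 2 on day 1, 9 and 5 on day 7 and 4 and 0 between the days, and 12 fell on day 1, 35 rose and 16 fell on day 7 and 9 fell between the days at any FC. The shares of all genes at an FC of 2 were 6.25% and 0.412% on day 1, 17.4% and 0.725% on day 7, and 5.74% and 0.849% between the days. By log2(TPM + 0.1), 26 and 6 passed an FC of 2 on day 7 and 0 fell between the days, and 12 fell on day 1, 36 rose and 15 fell on day 7 and 8 fell between the days at any FC. Shares of all genes were not counted for log2(TPM + 0.1), so these counts are not read as particular to channel genes. Beside the 0 of limma, the count at an unadjusted p below 0.05 was also 0, and edgeR and DESeq2 gave 3.

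Leaving out a heart gave 5 to 7 rises and 8 to 11 falls by an FC of 2 on day 1, 16 to 20 and 15 to 18 on day 7, and 11 to 16 and 3 to 4 between the days. With a replicate block, 6 and 9, 17 and 17, and 14 and 3 passed. Same-numbered hearts did not pair, with correlations of their deviations from -0.24 to 0.23. The block lost the day 1 calls of Kcnd1, Kcnj14 and Kcnq1 and added Cacnb3 and Kcnd3os on day 1 and Kcnip2 between the days.

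TPM recomputed from counts and exon length moved 6 of 9 leading sham levels by over 1 SD, to 171 for Kcnip2, 224 for Kcnk3, 128 for Kcnj11, 42.1 for Cacna1c, 11.8 for Cacnb2 and 52.8 for Kcnj5. The order of levels between genes therefore depends on the transcript length used.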
